A study of Mus musculus with 6 samples.

Results

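p65 binding in epidermal cells of aged mice given a control IgG was compared with binding in cells of adult mice, using the 2 lists of ChIP–seq peaks that hold these conditions. In ChIP–seq, chromatin carrying the protein is captured with an antibody and its DNA is sequenced, so that occupied places appear as peaks of fragments. All peaks of both lists were taken, 8525 in the list labelled adult and 4169 in the aged/IgG control list, which together are 12694 of the 18708 peaks in the 3 lists of the series. Because the lists differ in size, each comparison was also made with the 4169 strongest peaks of each list by −log10 q (called the equal-number comparison below). Peaks that share at least 1 bp were counted as shared, and each peak was assigned to the gene whose transcription start site (TSS) was nearest.

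Both conditions were C57bl/6J mice. The adult mice were 17 to 25 weeks old and received no treatment. The aged mice had a control IgG injected intraperitoneally 3 times a week for 12 weeks from 73 weeks of age, so that age and IgG injection differ together between the conditions and cannot be told apart. The cells of both were all epidermal cells released with trypsin, without a sort for one cell type. Reads of 4 mice were merged into 1 pool per condition before peak calling, so there was no spread between animals and no test between conditions could be made. Intervals given here (95%, Wilson for shares and exact Poisson for heights) cover counting error only, and deduplicated reads without molecular identifiers are not certain to be independent molecules. All 8525 peak names in the list labelled adult begin with the word Treated, as do all 6014 in the aged/anti-IL-17A/F list and 0 in the aged/IgG control list. The list is therefore called adult-labelled throughout, and the main results are also given with the aged/anti-IL-17A/F list in its place.

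p65, encoded by Rela, is the transactivating subunit of the most common NF-κB dimer. In resting cells IκB proteins hold NF-κB in the cytoplasm, and signals from TNF, IL-1, Toll-like or IL-17 receptors lead through the IκB kinases to IκB degradation and entry of the dimer into the nucleus. There it binds κB sites and switches on cytokine, chemokine and survival genes together with its own inhibitors, among them Nfkbia and Tnfaip3. In epidermis the pathway takes part in defense and in the balance between growth and differentiation.

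Sequences at the summits are shown for some of the peaks that the results name, chosen because they hold the NF-κB consensus motif, except for Il9. They do not stand for all peaks, since among the 5 strongest without a partner the windows of Resf1 and Eef1akmt1 (adult-labelled) and of Fam53b, Mir6926 and Apip (aged/IgG control) held no match. The sequences are the plus strand of GRCm38/mm10, with the match to the NF-κB consensus motif nearest the summit in capitals. The first 4 belong to peaks shared by both lists and among the 10 of highest fold enrichment in aged/IgG control. The Nfkbia sequence (chr12:55492657-55492686) lay within 1 kb of the TSS, that of Junb (chr8:84976460-84976509) was intergenic, that of Mmrn2 (chr14:34379164-34379213) intronic and that of Mir3965 (chr5:134332920-134332969) intergenic.
Nfkbia: gtcaggcgcgGGGAATTTCCaagccagtca
Junb: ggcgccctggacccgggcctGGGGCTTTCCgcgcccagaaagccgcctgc
Mmrn2: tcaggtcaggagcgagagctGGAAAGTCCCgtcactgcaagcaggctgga
Mir3965: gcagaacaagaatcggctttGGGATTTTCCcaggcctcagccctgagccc

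The next 4 come from adult-labelled peaks with no partner in aged/IgG control. Zbtb34 (chr2:33431616-33431665), Tmem131l (chr3:84021900-84021949) and Ptgs1 (chr2:36214243-36214292) were among the strongest such peaks, at a promoter, in an intron and in intergenic DNA. Krt14 (chr11:100206108-100206157, promoter) is shown because it encodes the keratin of basal keratinocytes.
Zbtb34: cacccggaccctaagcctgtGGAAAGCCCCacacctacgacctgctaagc
Tmem131l: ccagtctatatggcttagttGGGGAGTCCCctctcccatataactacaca
Ptgs1: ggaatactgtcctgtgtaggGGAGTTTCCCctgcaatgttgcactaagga
Krt14: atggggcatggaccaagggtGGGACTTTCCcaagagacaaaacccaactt

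The last 3 come from aged/IgG control peaks with no adult-labelled partner. B230209E15Rik (chr7:61481317-61481366, intergenic) was the strongest of them. The fourth strongest (chr5:37522555-37522604) lay in an intron and is named for its nearest TSS, that of Evc2, 184149 bp away. The window at Il9 (chr13:56477082-56477131, intergenic) held no match and is shown in lower case throughout.
B230209E15Rik: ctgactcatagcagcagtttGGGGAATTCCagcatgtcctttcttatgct
Evc2: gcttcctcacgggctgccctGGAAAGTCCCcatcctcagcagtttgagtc
Il9: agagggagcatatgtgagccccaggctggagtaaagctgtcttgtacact

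Nearly every p65 peak of aged/IgG control was also a peak in the adult-labelled list, whereas fewer than 1 in 2 adult-labelled peaks were found in aged/IgG control. Of the 4169 aged/IgG control peaks, 3890 (93.3%, interval 92.5 to 94.0) overlapped an adult-labelled peak and 279 did not. Of the 8525 adult-labelled peaks, 3879 (45.5%, 44.4 to 46.6) overlapped an aged/IgG control peak and 4646 did not. The aged/IgG control list held 0.489 times as many peaks and covered 0.457 times as many bases, with per-chromosome ratios of peak number from 0.40 on chromosome X to 0.544 on chromosome 17.

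With equal numbers of peaks the overlap was nearly even from both sides. It held 3166 of the 4169 aged/IgG control peaks (75.9%, 74.6 to 77.2) and 3149 of the 4169 adult-labelled peaks (75.5%, 74.2 to 76.8), leaving 1003 and 1020 without a partner. Of the 1003 aged/IgG control peaks, 724 (72.2%) overlapped an adult-labelled peak that ranked below the 4169 strongest. All of the 1000 strongest adult-labelled peaks had an aged/IgG control partner, and 999 of the 1000 strongest aged/IgG control peaks had an adult-labelled one. The strongest peaks were thus common to both lists, and the lists differed among the weaker ones.

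The number of fragments over a peak's summit, called its height below, could be recovered from the deposited fold enrichment and p-value of each peak, and came out whole to within 0.001 of a fragment for every peak. Heights ran from 34 to 441 in the adult-labelled list and from 34 to 359 in aged/IgG control, with a median of 61 in both. The lowest local background was 13.4 fragments in the adult-labelled list and 13.1 in aged/IgG control, a ratio of 0.974, for pools that the methods describe as downsampled to the same number of reads.

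Whether an adult-labelled peak was also called in aged/IgG control went with its height. Under 45 fragments 3.99% had a partner, at 50 to 54 it was 14.3%, and at 60 to 69 it was 43.1%. The share then reached 92.5% at 85 to 109 fragments and 100% (506 of 506) at 150 and above. In the other direction the share was high at every height. It was 70.7% for aged/IgG control peaks under 45 fragments, 92.0% at 50 to 54 and 99.8% at 70 to 84. No adult-labelled peak of 150 fragments or more was missing from aged/IgG control, and only 4 of 635 were missing at 110 to 149.

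**Figure D1:**
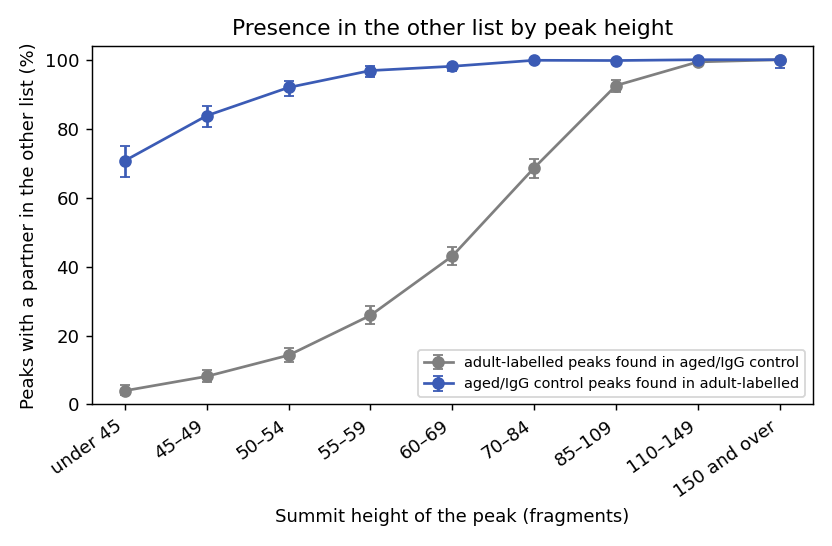
Share of peaks (%) with a partner in the other list against the summit height of the peak in fragments, for adult-labelled peaks (grey) and aged/IgG control peaks (blue); bars are 95% Wilson intervals. The grey points go from 3.99% to 100% with height, whereas the blue points start at 70.7%.

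At peaks called in both lists the signal was lower in aged/IgG control. Over all 3903 overlapping pairs the median log2 ratio of the authors' fold enrichment, aged/IgG control over adult-labelled, was −0.30 (81.1% of the adult-labelled value), and the fold enrichment was lower in aged/IgG control in 3067 pairs (78.6%). In the 3829 pairs with exactly 1 partner each, the height itself was lower in aged/IgG control in 3622 (94.6%), higher in 183 and equal in 24. The median height was 74.0% of that in the adult-labelled list, and the height less the local background 70.4% (log2 ratio −0.51). The Poisson intervals of the heights did not overlap in 902 pairs (23.6%), all lower in aged/IgG control, and in 0 pairs with the higher value there.

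The difference was present at strong and weak pairs alike. With pairs ordered by the sum of both heights in 10 groups of 382 or 383, the median background-subtracted height in aged/IgG control was 83.6% of the adult-labelled value in the weakest group, 65.4% in group 7 and 69.7% in the strongest. A weak pair enters only if both of its peaks passed the calling threshold, which bounds how low the aged/IgG control value can be. The median log2 ratio was −0.53 for pairs with the NF-κB consensus near a summit and −0.48 for those without, and −0.57 within 1 kb of a TSS against −0.48 farther away. Shared peaks were also narrower in aged/IgG control in 85.3% of pairs, with median widths of 439 and 543 bp. Their positions hardly moved, with a median distance between summits of 28 bp and 70.9% of summits within 50 bp.

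**Figure D2:**
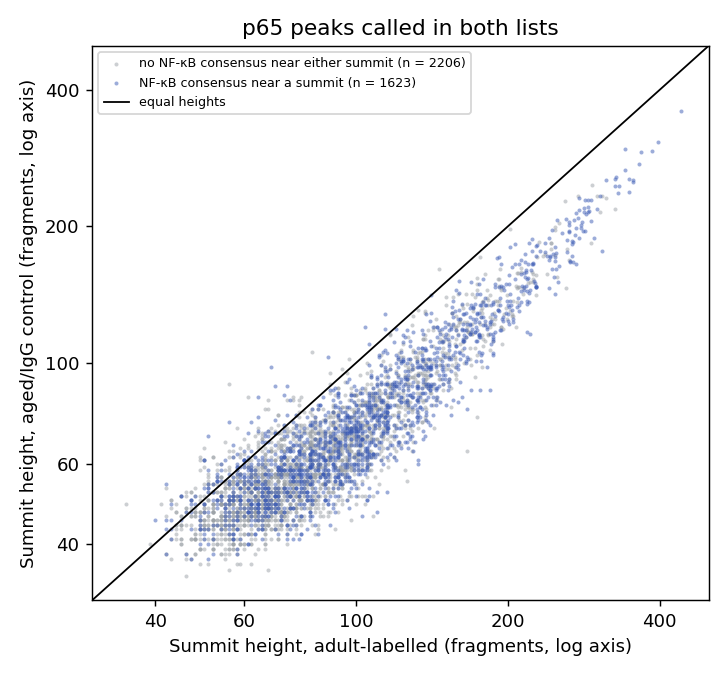
Summit heights in fragments of the 3829 one-to-one pairs of peaks, adult-labelled on the horizontal and aged/IgG control on the vertical axis (both log axes), blue where the NF-κB consensus lies within 100 bp of a summit; the line marks equal heights. Most points, 94.6%, lie below the line at all heights.

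Genes of NF-κB subunits and inhibitors were among the strongest bound in both lists. All 5 subunit genes and all 6 IκB genes had a peak in each list and in the equal-number comparison, against 23.1% (adult-labelled), 12.9% (aged/IgG control) and 13.2% (equal number) of all protein-coding genes. Other parts of the pathway were bound less completely, with 9, 7 and 6 of 19 TRAF, cIAP, NIK and IKK genes and 6, 5 and 5 of 12 genes of A20 and ubiquitin editing in the same order, and 9 and 6 of these genes in neither list. Nfkbia, encoding the IκBα inhibitor, had the highest peak of both lists, with 441 fragments (interval 401 to 484) in the adult-labelled list and 359 (323 to 398) in aged/IgG control. Nfkbib, encoding IκBβ, had 355 and 251 fragments, and Nfkb2, encoding the p100 precursor of p52, had 386 and 294. The promoter peak of Rela had 292 (259 to 327) and 184 (158 to 213) fragments. The peak of Rel, encoding c-Rel, had 228 and 141. Every one of these 11 genes had the lower value in aged/IgG control, and 8 of the 11 pairs of intervals did not overlap. At Nfkbiz the highest peaks of the lists lay at different places, so its values do not compare 1 site.

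**Figure D3:**
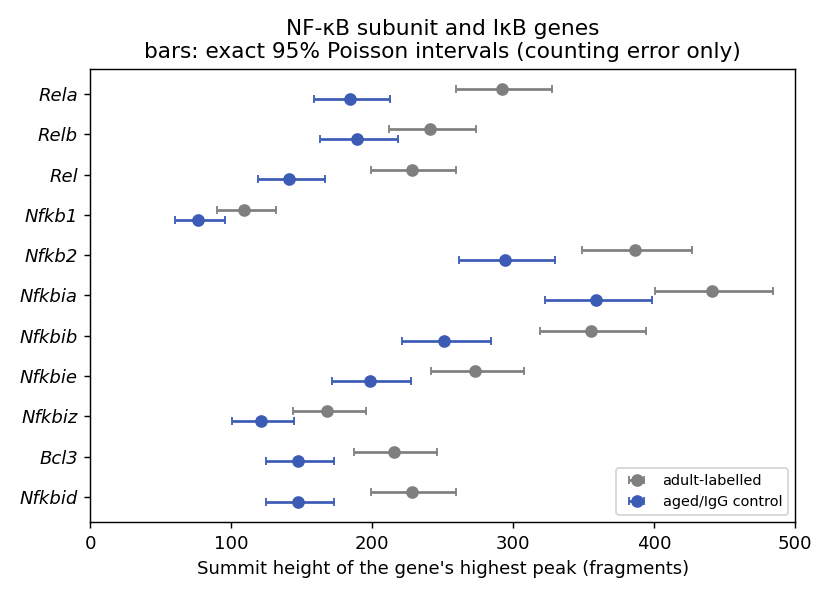
Summit height, in fragments, of the highest peak of each NF-κB subunit and IκB gene in the adult-labelled (grey) and aged/IgG control (blue) lists, with exact 95% Poisson intervals (counting error only). Each blue point lies to the left of its grey point, from 76 against 109 fragments at Nfkb1 to 359 against 441 at Nfkbia.

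Other feedback regulators followed the same order of heights. Tnfaip3, encoding the ubiquitin-editing enzyme A20, had 364 fragments in the adult-labelled list and 274 in aged/IgG control. Tnip1, encoding an A20-binding protein, had 397 and 307, Cyld, encoding a deubiquitinase, 266 and 168, and Birc3, encoding cIAP2, 232 and 177. Junb, encoding an AP-1 subunit, had 341 and 296. When each list was ordered by fold enrichment, the first 10 peaks included 4 at the same genes (Nfkbia, Nfkbib, Tnip1 and Junb). The others of the adult-labelled list were nearest to Gm826, Gpbp1, Chd2, Mrpl45, Mir721 and Stap2, and those of aged/IgG control to Mir3965, 4831407H17Rik, Mmrn2, Nfkb2, Hivep3 and Gm10789. Each of these 20 peaks had a partner in the other list.

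The pairs with the most extreme ratios of fold enrichment depended in part on the local background. At Kcnn3 the fold enrichment was 2.74 in the adult-labelled list and 5.42 in aged/IgG control, while the heights were 82 and 77 fragments over backgrounds of 29.3 and 13.4. At Ndel1 the heights were 70 and 77 over backgrounds of 27.3 and 15.1. Both peaks thus had a similar height in both lists and a higher background in the adult-labelled one. Parp14, encoding an interferon-inducible ADP-ribosyltransferase, differed in height as well, with 68 fragments in the adult-labelled list and 98 in aged/IgG control, and Gm536 had 82 and 106, both with overlapping intervals.

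At the opposite end a lower height in aged/IgG control could come with a higher background there. At Prss23, encoding a serine protease, the heights were 95 in the adult-labelled list and 57 in aged/IgG control over backgrounds of 13.4 and 27.1. At Arf4, encoding a small GTPase of the Golgi, the heights were 174 and 76 over 17.6 and 22.3, and at Fgfbp1, encoding a carrier protein of fibroblast growth factors, 184 and 87 over 13.4 and 18.4. The intervals of the heights did not overlap at any of these 3 genes, nor at Meig1 (133 and 61).

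The 4646 adult-labelled peaks without a partner were mostly low, with a median height of 52 fragments against 87 for those with one, and none exceeded 113. The strongest was at the promoter of Zbtb34, encoding a zinc finger protein, with 113 fragments (93.1 to 136) at chr2:33431355-33431918, and the nearest aged/IgG control peak was 55146 bp away. Next came intergenic and intronic peaks nearest to Resf1 (101 fragments), Tmem131l (103) and Ptgs1 (102), which encodes cyclooxygenase-1, and a promoter peak of Eef1akmt1 (110). Grhl3, encoding a transcription factor of epidermal barrier formation, had such a peak 24805 bp from its TSS, with 106 fragments. Grhl3 was nevertheless bound in both lists, since it had 3 adult-labelled peaks and 1 in aged/IgG control. The other 4 of the 10 strongest were nearest to Sec14l4, Ddi2, Pptc7 and Zdhhc3, with 91 to 112 fragments.

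The 279 aged/IgG control peaks without a partner were fewer and lower still, with a median of 46 fragments. The strongest, nearest to B230209E15Rik, had 87 fragments (69.7 to 107) at chr7:61481063-61481492, 2273745 bp from the nearest adult-labelled peak. It was followed by intronic peaks of Fam53b (76 fragments) and near Mir6926 (64). Next were a peak whose nearest TSS was that of Evc2, 184149 bp away (62), and an intergenic peak near Apip (61). In the equal-number comparison the 10 strongest were B230209E15Rik, Fam53b and peaks near Kcnn3 (77 fragments), Ptpn14 (74), Ndel1 (77), Amigo2 (69), Srl (69), Serpina3j (69), Mir3109 (67) and Rtn4 (77). At the last 8 an adult-labelled peak that ranked below the 4169 strongest lay at the same place, so they lack a partner only in that comparison.

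The NF-κB consensus motif was counted within 100 bp of each summit, on both strands, and marked strong peaks in both conditions. It was found at 28.5% of adult-labelled peaks (27.5 to 29.4), at 37.8% of aged/IgG control peaks (36.3 to 39.2) and at 41.1% (39.7 to 42.6) of the 4169 strongest adult-labelled peaks. Windows of the same length 2000 bp to either side held it in 2.18% and 1.95%, and 4.51% of 32851 RefSeq promoter windows from 250 bp before to 50 bp after a TSS did. The share among all peaks was higher in aged/IgG control, and with equal numbers of peaks it was higher in the adult-labelled list. By rank it was 58.8% and 57.0% (adult-labelled and aged/IgG control) among the 1000 strongest peaks, 44.3% and 42.8% in the next 1000, 33.4% in both in the third, and 29.4% and 21.8% in the fourth. The intervals of the first 3 blocks overlapped and those of the fourth did not.

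**Figure D4:**
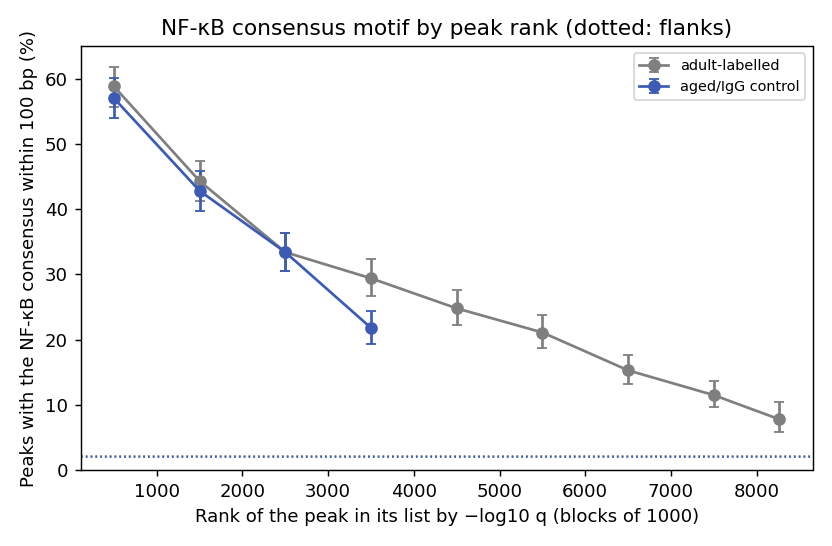
Share of peaks (%) with the NF-κB consensus motif within 100 bp of the summit, in blocks of 1000 peaks ranked by −log10 q, for the adult-labelled (grey) and aged/IgG control (blue) lists; bars are 95% Wilson intervals and dotted lines the flanking windows. The curves coincide in the first 3 blocks, and the grey one goes down to 7.81% in the last.

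Peaks without a partner seldom held the motif on either side, 18.7% of the 4646 adult-labelled and 20.4% of the 279 aged/IgG control ones, against 40.1% and 39.0% of those with a partner. In the equal-number comparison the peaks without a partner differed, with the motif at 306 of 1020 (interval 27.3 to 32.9%) in the adult-labelled list and at 201 of 1003 (17.7 to 22.6%) in aged/IgG control. Their median heights were 67 and 48 fragments, and the part of height in this difference was not tested. Adult-labelled peaks with the motif were more often called in aged/IgG control (64.2%) than those without (38.1%). At like heights the gap was smaller but had the same sign in all 8 ranges below 150 fragments. It was 9.30% against 3.33% under 45 fragments, 27.3% against 25.4% at 55 to 59, 74.3% against 66.1% at 70 to 84 and 94.8% against 90.8% at 85 to 109, and the intervals overlapped in every range.

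Motifs of other factors were nearly as frequent in one list as in the other. The AP-1 motif TGANTCA was found at 13.2% of adult-labelled and 14.1% of aged/IgG control peaks (6.11% and 6.14% of flanking windows, 7.81% of promoter windows), and the Grainyhead motif AACNGGTT, bound by Grhl factors, at 4.31% and 4.94% (1.32% and 1.25% of flanks, 2.09% of promoters). The GC-rich SP/KLF motif GGGCGG was at 25.9% and 23.0% (4.23% and 4.32% of flanks, 35.7% of promoters) and the ETS motif CCGGAAG at 5.18% and 3.98% (1.07% and 1.13% of flanks, 8.86% of promoters). The shares of the NF-Y motif CCAAT were 21.5% and 21.6% (23.9% and 23.4% of flanks, 37.4% of promoters), those of the TEAD motif CATTCC 13.2% and 14.8% (10.2% of flanks on both sides, 14.7% of promoters), and those of the CREB motif TGACGTCA 1.17% and 1.15% (0.141% and 0.084% of flanks, 1.79% of promoters). Both strands were searched for each motif, and overlaps between motifs were not removed. Promoter windows (250 bp before to 50 bp after a TSS) were longer than summit and flanking windows (100 bp to either side). A longer window is more likely to hold a match, so the promoter shares are not on the same scale. The SP/KLF and ETS shares were the ones whose intervals did not overlap between the lists. In the equal-number comparison they were at 22.9% and 4.22% of adult-labelled peaks, within the intervals of aged/IgG control.

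Promoter peaks took a larger share of the adult-labelled list with all peaks, and not with equal numbers. The middle of the peak lay within 1 kb of a TSS for 36.9% of adult-labelled peaks (35.9 to 37.9) and 33.1% of aged/IgG control peaks (31.7 to 34.6), and for 31.6% (30.2 to 33.0) of the strongest 4169 adult-labelled peaks, whose interval overlapped that of aged/IgG control. By summit, 28.8% and 30.3% were in introns and 32.6% and 34.8% intergenic. Among the adult-labelled peaks without a partner 40.1% were within 1 kb of a TSS, against 33.0% of those with one.

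At the level of genes, 4837 protein-coding genes (23.1% of 20923) had an adult-labelled peak and 2706 (12.9%) an aged/IgG control peak. Both lists shared 2580, which is 95.3% of the aged/IgG control genes and 53.3% of the adult-labelled ones. There were 2257 genes (10.8%) with a peak in the adult-labelled list alone and 126 (0.602%) in aged/IgG control alone. With equal numbers of peaks the adult-labelled list held 2760 genes (13.2%), 2205 of them in both. Then 555 (2.65%) were in the adult-labelled list alone and 501 (2.39%) in aged/IgG control alone. Of the 126 genes, 18 had a peak that overlapped an adult-labelled peak assigned to another gene. Genes with 1 adult-labelled peak were also bound in aged/IgG control in 42.6% of cases, those with 2 in 71.3%, with 3 in 88.3% and with 4 or more in 95.7%.

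Most genes with many adult-labelled peaks had several in aged/IgG control. Sik1, encoding a salt-inducible kinase, had 15 adult-labelled and 6 aged/IgG control peaks, Golph3 13 and 7, Klf4, encoding a factor of the barrier and of late differentiation, 11 and 6, and Nfkbia 8 and 6. Gadd45b, a stress-inducible NF-κB target, had 6 and 6. Socs3, encoding an inhibitor of JAK–STAT3 signaling, stood apart with 6 adult-labelled peaks, of at most 69 fragments, and 0 in aged/IgG control.

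Genes of 32 lists (705 distinct genes) covering NF-κB signaling, inflammation, epidermal structure and general functions were then counted. The adult-labelled list held a peak at 341 of them (48.4%), aged/IgG control at 231 (32.8%), and the 4169 strongest adult-labelled peaks also at 231. All protein-coding genes gave 23.1%, 12.9% and 13.2% in the same order. With all peaks, 26 lists had more members bound in the adult-labelled list, 6 had the same number and 0 had more in aged/IgG control. With equal numbers, 11 lists had more in the adult-labelled list, 12 the same number and 9 more in aged/IgG control. The 9 were TRAF, cIAP, NIK and IKK genes, IL-17 receptors and adaptors, IL-12 and IL-23, type 2 and TSLP, interferon factors and targets, survival genes, lipid barrier, tight and adherens junctions, and matrix proteases. They differed by 1 to 3 genes. In that comparison 32 of the 705 genes were bound in each condition alone, against 2.65% (adult-labelled) and 2.39% (aged/IgG control) of all protein-coding genes. Among bound genes these were 32 of 231 on each side, against 555 of 2760 and 501 of 2706.

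**Figure D5:**
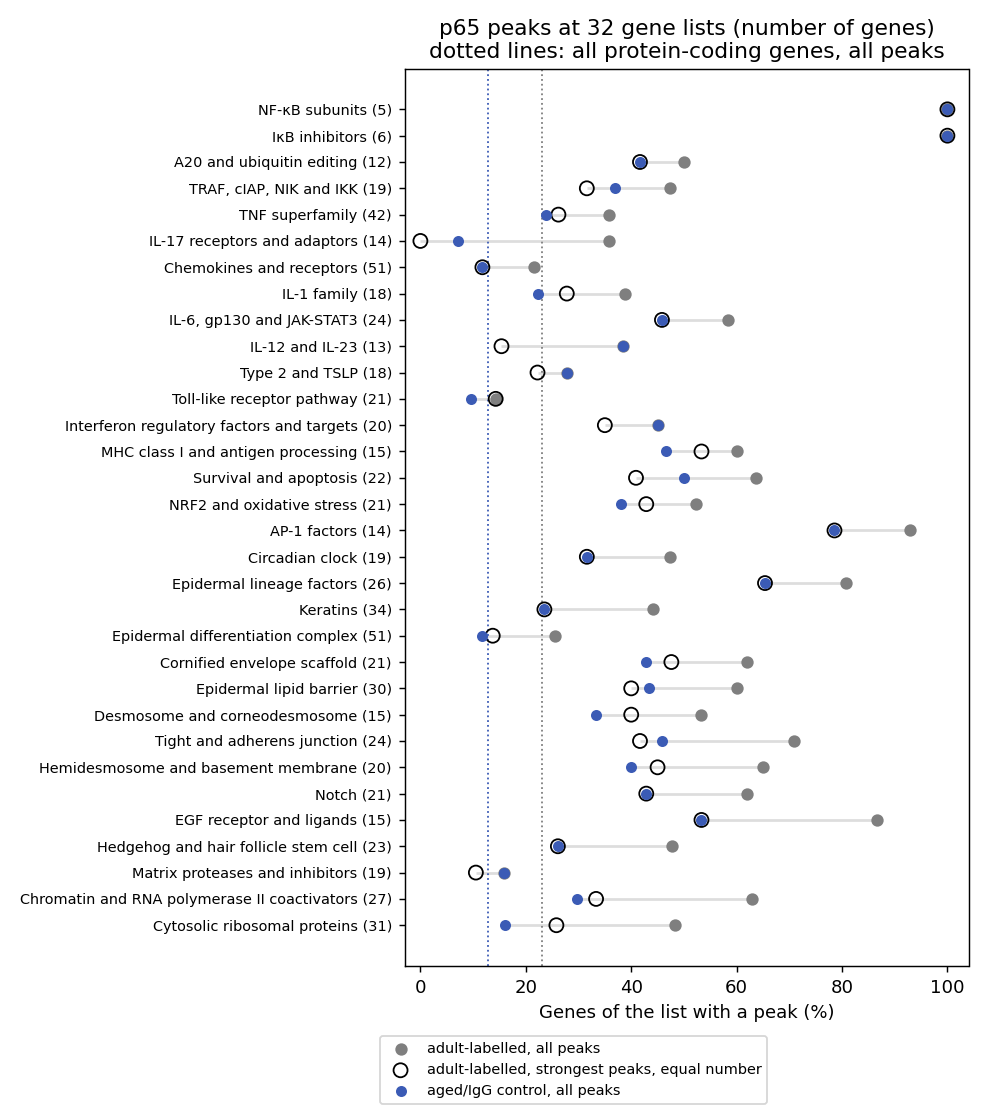
Share (%) of the genes of each of 32 lists with a p65 peak in the adult-labelled list (grey), in its 4169 strongest peaks (open circles) and in aged/IgG control (blue); dotted lines mark all protein-coding genes, 23.1% and 12.9%. Grey points lie to the right of the blue ones or on them, whereas open circles lie on either side.

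At 196 list genes the highest peak was at the same place in both lists, and it was lower in aged/IgG control at 192. The exceptions were Il12b (47 and 50 fragments), Gadd45g (52 and 54), Ereg (47 and 49) and Sox9 (52 and 52). The background-subtracted height in aged/IgG control relative to the adult-labelled value was lowest at Alox12b and highest, 107%, at Gadd45g, with a median of 69.1%, close to the 70.4% over all pairs. The intervals did not overlap at 60 of the 196 genes, each represented by its highest peak, against 23.6% of all pairs.

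Of the 705 list genes, 119 (16.9%, against 10.8% of all protein-coding genes) were bound in the adult-labelled list alone and 9 (1.28%, against 0.602%) in aged/IgG control alone. List genes were bound more often in either list (48.4% and 32.8%, against 23.1% and 12.9%), which raises both shares. Among bound genes the adult-labelled counts were 119 of 341, against 2257 of 4837 for all protein-coding genes. For aged/IgG control they were 9 of 231 against 126 of 2706, so on this base both shares were lower for list genes. The 119 had low peaks, with a median height of 54 fragments (38 to 85), and 85 of them were under 60, a range in which 3.99% to 25.8% of all adult-labelled peaks had an aged/IgG control partner. Only Dsc1, encoding the desmosomal cadherin desmocollin 1, reached 85. The 9, with 38 to 78 fragments, included Il9, Crlf2, Il17re, Il23a, Rnf31, Ifnar2, Lama5 and Rps23. The highest of these, at Rnf31, encoding the ubiquitin ligase HOIP, overlapped an adult-labelled peak assigned to the neighboring Psme2.

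Among inflammatory lists, IL-17 receptors and adaptors showed 5 of 14 genes in the adult-labelled list, 1 in aged/IgG control and 0 in the equal-number list, or 35.7%, 7.14% and 0, against 23.1%, 12.9% and 13.2% of all protein-coding genes. The adult-labelled peaks were at Il17ra (53 fragments, 177 bp from the TSS), Il17rc (48), Traf3ip2, encoding the receptor adaptor Act1 (58), Arid5a (51) and Il25 (53). The only one in aged/IgG control was 7202 bp from the TSS of Il17re, with 53 fragments. All 6 were weak peaks, and 0 of the 5 adult-labelled ones were among the 4169 strongest of that list.

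For IL-12 and IL-23 both lists held 5 of 13 genes (38.5%), and the equal-number list 2 (15.4%), against the same shares of all genes. Il23a, encoding the p19 subunit of IL-23, had a peak of 48 fragments 95 bp from its TSS in aged/IgG control alone. Il23r, encoding the receptor subunit, had 134 fragments (112 to 159) in the adult-labelled list and 80 (63.4 to 99.6) in aged/IgG control. Tbx21 was bound in the adult-labelled list alone, with 51 fragments. The list thus held members with higher values on either side.

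Chemokine genes were bound at 11 of 51 in the adult-labelled list and at 6 in aged/IgG control, with 6 in the equal-number list. These shares, 21.6% and 11.8%, were near those of all protein-coding genes (23.1% and 12.9%). Cxcl1, which attracts neutrophils, had 117 fragments in the adult-labelled list and 84 in aged/IgG control, and Cxcl10, an interferon-induced chemokine, 173 and 125. In the TNF superfamily 15 and 10 of 42 genes (35.7% and 23.8%) were bound, with 11 (26.2%) in the equal-number list. These shares were above the 23.1%, 12.9% and 13.2% of all protein-coding genes. Tnf itself had 110 fragments (90.4 to 133) and 92 (74.2 to 113), in a peak 2853 bp from its TSS. Interferon regulatory factors and targets were bound at 9 of 20 in both lists, and Irf1, an interferon-response transcription factor, had 248 fragments (218 to 281) and 142 (120 to 167). Toll-like receptor genes were among the least bound, with 3 and 2 of 21 (14.3% and 9.52%), below the shares of all protein-coding genes with all peaks. The equal-number list held 3 of them (14.3%, against 13.2%). Tlr2 nevertheless had 174 and 142 fragments.

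Il9 and Crlf2, cytokine and TSLP receptor genes, had weak peaks in aged/IgG control alone. That of Il9 had 42 fragments (30.3 to 56.8), 5240 bp from the TSS at chr13:56476847-56477188, and that of Crlf2 had 38 (26.9 to 52.2) in an intron at chr5:109557669-109557968. Neither was among the 10 strongest peaks without a partner, and neither held the NF-κB consensus. The opposite pattern was found for Evpl, encoding envoplakin, Krt14 and Dll1, encoding a Notch ligand. Evpl had 51 fragments (38.0 to 67.1) 42 bp from its TSS, Krt14 had 55 (41.4 to 71.6) 96 bp from its TSS, and Dll1 had 47 (34.5 to 62.5) 3551 bp away. Of these 5 peaks only that of Krt14 held the motif. None of the 3 adult-labelled peaks was among the 4169 strongest, and of all adult-labelled peaks 8.15% at 45 to 49 fragments, 14.3% at 50 to 54 and 25.8% at 55 to 59 had an aged/IgG control partner.

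Lists of epidermal structure had more members bound in the adult-labelled list and totals within 1 gene of each other once peak numbers were equal, although the members were not all the same. Keratins were bound at 15 of 34 genes in the adult-labelled list, 8 in aged/IgG control and 8 in the equal-number list. Krt1, encoding the keratin of suprabasal cells, had 107 fragments in the adult-labelled list and 68 in aged/IgG control. Krt5 (68 fragments), Krt15 (68) and Krt8 (80) were among 7 keratin genes with a peak in the adult-labelled list alone, and were the 3 that remained so with equal numbers. In that comparison Krt2 (42 fragments), Krt10 (36) and Krt77 (43) had a peak in aged/IgG control alone, while their adult-labelled peaks (50, 50 and 54) ranked below the 4169 strongest. Genes of the epidermal differentiation complex were bound at 13 and 6 of 51 (25.5% and 11.8%), with 7 in the equal-number list, near the 23.1% and 12.9% of all protein-coding genes.

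Lipid barrier genes were bound at 18 and 13 of 30, with 12 in the equal-number list, where all protein-coding genes gave 23.1%, 12.9% and 13.2%. Alox12b, encoding the 12R-lipoxygenase of the lipid envelope, had 97 fragments (78.7 to 118) in the adult-labelled list and 48 (35.4 to 63.6) in aged/IgG control, and Abca12, encoding a lipid transporter of lamellar granules, 70 and 41. Hemidesmosome and basement membrane genes were bound at 13 and 8 of 20 (9 in the equal-number list). Col17a1, encoding collagen XVII, had 71 and 44 fragments, Itga3, encoding integrin α3, 99 and 57, and Cd151, encoding a tetraspanin of hemidesmosomes, 83 in the adult-labelled list alone. EGF receptor and ligand genes were bound at 13 and 8 of 15, with 8 in the equal-number list. The shares of these 3 lists were all above those of all protein-coding genes.

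Lists of general functions also had more members bound in the adult-labelled list. Cytosolic ribosomal protein genes were bound at 15 of 31 in the adult-labelled list, 5 in aged/IgG control and 8 in the equal-number list. These shares were 48.4%, 16.1% and 25.8%, against 23.1%, 12.9% and 13.2% of all protein-coding genes. Chromatin and coactivator genes were bound at 17, 8 and 9 of 27, with Ezh2, encoding the histone methyltransferase of Polycomb, at 79 fragments in the adult-labelled list alone. AP-1 genes were bound at 13, 11 and 11 of 14. Transcription factors of the epidermal lineage, a skin list, were bound at 21, 17 and 17 of 26. The last 3 lists had shares above those of all protein-coding genes in each count.

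Marker genes of the cells the isolate could hold were read in the same way, although a bound gene need not be an expressed one. All 10 keratinocyte markers had a peak in the adult-labelled list, 5 in aged/IgG control and 6 in the equal-number list, all above the 23.1%, 12.9% and 13.2% of all protein-coding genes. Of 10 leukocyte markers only Itgam had a peak, in both lists (71 and 58 fragments). Pecam1, of 4 endothelial markers, was bound in both (284 and 195), Pdgfra, of 6 fibroblast markers, in the adult-labelled list alone (59), and 0 of 4 melanocyte markers in either. The part of cell composition in the differences between the conditions was not tested.

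With the aged/anti-IL-17A/F list in place of the adult-labelled one, overlap and heights differed in the same direction at smaller size. Of the aged/IgG control peaks 86.6% had a partner, and 59.9% of the 6014 peaks of that list did, while the equal-number overlap was 75.6%. The height was lower in aged/IgG control in 87.2% of 3562 one-to-one pairs, with a median background-subtracted height of 80.6%. Of the 705 list genes 294 were bound with all peaks, against 231 in aged/IgG control. Over all 20923 protein-coding genes the numbers were 3649 and 2706. With equal numbers 31 list genes were bound in the aged/anti-IL-17A/F list alone and 35 in aged/IgG control alone, given here without a share over all genes. Evpl (47 fragments) and Krt14 (63) had a peak in that list as in the adult-labelled one, Il9 and Crlf2 had 0 in both, and Dll1 had 0 there and 1 in the adult-labelled list.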

How the data were processed

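p65 ChIP–seq was done on epidermal cells of 4 mice per condition, and 1 peak list per condition was deposited. According to the methods, the authors trimmed reads (Trimmomatic 0.36 per the processing notes), aligned them to mm10, merged the mice, deduplicated, downsampled the pools to the same number of reads and called peaks with MACS2 (q value of 0.01, no model, extension of 300 bp). The deposited columns are a score, the fold enrichment (a ratio of summit height to local background, each plus 1), the −log10 of the p-value and of the q-value, and the summit. The aged/anti-IL-17A/F list served as an alternative, and the 3 inputs were not analysed here. Pooling removes the spread between animals, and downsampling does not remove differences in the efficiency of the immunoprecipitation.

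Heights and backgrounds were recovered after seeing the files, by solving the fold enrichment and the Poisson −log10 p of each deposited peak for 2 unknowns. In 4000 of 4000 simulated peaks the height was recovered exactly. The recovered backgrounds lay at whole multiples of 0.976 fragments for 53.3% of adult-labelled peaks and of 0.969 for 48.8% of aged/IgG control peaks. Counts of a second, scaled library have such steps, but whether an input entered peak calling, and so whether the printed backgrounds are those of an input, is not given in the sources used here.

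Peaks were assigned to the nearest TSS of curated RefSeq transcripts (GRCm38, chromosome Y left out) from the middle of the peak, and gene counts cover protein-coding genes alone. The overlap step was checked with bedtools 2.31.1 on 8525 shifted peaks. Python 3.11.15, numpy 2.4.6, pandas 2.3.3, scipy 1.17.1, pysam 0.24.0 and matplotlib 3.10.9 were used.

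The conditions compared, the gene lists, the markers and the rule for named genes were chosen with earlier results of these data known. The rule took the nearest genes of the 10 peaks of highest fold enrichment per list, of the 10 strongest peaks without a partner in each direction and comparison, and of the 10 one-to-one pairs with the largest ratio of fold enrichment in each direction, the 10 genes with most peaks per list, list members, and Il9, Crlf2, Evpl, Krt14, Dll1 and Tnf. Alternatives were other definitions of overlap, stricter thresholds, other rankings, other rules of annotation, other motif windows and other measures of height. Values of 2 genes that these rules name are not reported here.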

Additional observations from a re-analysis of the deposited data

How the results depend on the processing

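No paired analysis was possible because each condition is 1 pool, and no pool was left out for the same reason. Peaks near the calling threshold limit every count of absent peaks. The share of aged/IgG control peaks with a partner (93.3%) became 87.5% with 50% of both peaks overlapping, 88.3% with summits within 150 bp and 94.6% at a −log10 q of at least 10. For adult-labelled peaks these were 42.8%, 43.2% and 49.4%, and for the equal-number comparison 72.1%, 73.4% and 79.1%. With the aged/anti-IL-17A/F list exchanged for the adult-labelled one the first 2 shares were 86.6% and 59.9%. The equal-number share was also 73.4% when ranked by fold enrichment, 79.9% among 2000 and 80.6% among 1000 peaks of each list. The 279 aged/IgG control peaks without a partner became 521, 489 and 159 under the first 3 settings, 557 with the exchanged list and 1003 with equal numbers.

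Adult-labelled genes with a peak numbered 2760 with equal numbers and 2773 within 1 kb of a TSS, where aged/IgG control had 1231. Peaks within 5 kb of a TSS were 49.6% and 46.3% (adult-labelled and aged/IgG control), and 31.6% of adult-labelled peaks were within 1 kb with equal numbers. The motif share was 41.1% for adult-labelled peaks with equal numbers, 23.0% and 30.1% within 50 bp of the summit, and 34.9% and 44.7% anywhere in the peak, again in the order adult-labelled and aged/IgG control.

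The median log2 ratio of shared peaks (−0.30) was −0.81 for −log10 q and −0.33 for the rank within each list. The rank ratio is no measure of signal alone, because the lists differ in how much of them is shared. Shared peaks were 93.3% of the aged/IgG control list and 45.5% of the adult-labelled list. In the pairs, the median percentile rank was 53.0 in aged/IgG control and 75.9 in the adult-labelled list. Measures added after seeing the data gave −0.51 for the height less background, −0.61 for it at adult-labelled heights of at least 100, −0.43 with the background left in, and −0.14 for fold enrichment with the exchanged list. The pairs of at least 100 were chosen by the adult-labelled value, which by itself lowers this ratio. With equal numbers the order of the lists turned for the motif share (41.1% adult-labelled, 37.8% aged/IgG control) and the 1-kb share (31.6% and 33.1%). Over all settings, 25 other values stayed within their interval or within 1.5 times, 4 of them by construction, since the aged/IgG control list is whole in the equal-number comparison. The cause of these shifts was not tested.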
